A study of Mus musculus with 8 samples.

Results

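The 10 genes described here encode ERK-responsive transcription factors: the PEA3 factors Etv1, Etv4 and Etv5, the ETS factors Ets1 and Ets2, the ternary complex factors Elk1, Elk3 and Elk4, the zinc finger factor Egr1 and the serum response factor Srf. They were chosen by symbol from the 23420 gene symbols of the deposited tables, and each of the 10 was found. The RNA-seq libraries came from mouse embryonic fibroblasts that all express the adenoviral protein E1A and the activated Ras protein HRasV12, on a C57BL6/N strain background. Of the 8 libraries, 4 were from Neat1-/- cells (Neat1 null) and 4 from wild-type cells, and the comparison asks which genes differ when the long noncoding RNA Neat1 is lost. No untransformed cells were compared, so each difference is one between transformed populations. Separate embryos or cultures are not stated for the replicates of a genotype, so a p-value here reflects library-to-library spread, which may be technical. In bulk RNA of this kind fewer cells of a type and less RNA per cell cannot be told apart.

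ETS factors share a DNA-binding domain that recognises a GGAA core. ERK, the last kinase of the Ras cascade, phosphorylates Elk1, Elk3 and Elk4, which bind DNA together with Srf at immediate early genes, and it also phosphorylates Ets1 and Ets2. Etv1, Etv4 and Etv5 are transcribed when ERK is active and are widely used as a readout of the pathway, and Egr1 is an immediate early gene driven by Srf and the ternary complex factors. Srf has a second set of partners, the myocardin-related coactivators, which turn on actin and contractile genes.

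Counts assigned to genes came to 19651035 to 38950207 per Neat1 null library and 31651625 to 37069334 per wild-type library. Neat1 itself had 6.92, 11.3, 7.90 and 6.12 CPM (TMM-normalised read counts relative to library size) in the Neat1 null libraries, against 138, 588, 753 and 1320 CPM in the wild-type libraries, so the labels and the targeted gene match. By Xist and Y-linked genes, Neat1 null libraries 1, 2 and 4 were male, Neat1 null library 3 was female and all wild-type libraries were female. In the fit with sex as a covariate, the genotype difference therefore rests on Neat1 null library 3 against the wild-type libraries. That library and genotype cannot be told apart in it, so only log2 fold changes of that fit are given. Neat1 null library 1 held 25.1% of its counts on ribosomal protein genes, against 8.25% to 14.9% in the other Neat1 null libraries and 5.86% to 6.92% in wild-type. The fibroblast list of 10 genes summed to 2591 to 4035 CPM in Neat1 null and 1828 to 3402 CPM in wild-type libraries. In it 1 gene was called higher and 1 lower, where 9.97% and 7.72% of all tested genes were. Pdgfra, which encodes a platelet-derived growth factor receptor, was lower, with 3.92 to 10.9 CPM in Neat1 null and 40.9 to 148 CPM in wild-type libraries (log2 fold change -3.59, edgeR, adjusted p = 0.00806). S100a4 was higher, with 2.72 to 29.0 CPM in Neat1 null and 2.07 to 2.53 CPM in wild-type libraries (2.08, edgeR, adjusted p = 0.0473). Vim had 1891 to 3263 CPM in Neat1 null and 1233 to 2184 CPM in wild-type libraries, and Fn1 was likewise abundant, so these genes make up most of the list's sum. Mean levels in Neat1 null and wild-type were low for Col1a1 (2.50 and 5.47 CPM), Col3a1 (2.85 and 3.22 CPM) and Thy1 (4.53 and 5.27 CPM). Those of Col1a2 were 3.50 and 21.8 CPM, with ranges of 0.741 to 8.38 CPM and 1.72 to 77.1 CPM, and it did not pass (edgeR, adjusted p = 0.214). Dcn stayed under 1 CPM in every library (at most 0.898 CPM in Neat1 null and 0.513 CPM in wild-type). The endothelial list of 7 genes summed to 0.629 to 2.79 CPM in Neat1 null and 1.91 to 10.5 CPM in wild-type libraries. In the blood cell list Ptprc and Cd3e, which mark leukocytes and T cells, were at 0 in all 8 libraries. The macrophage lysosome gene Cd68 was lower, with 3.68 to 18.3 CPM in Neat1 null and 8.88 to 102 CPM in wild-type libraries (-2.47, edgeR, adjusted p = 0.0239). Csf1r and Itgam of that list reached at most 0.449 and 0.0941 CPM in Neat1 null and 0.265 and 0.0530 CPM in wild-type libraries. Cd68 alone therefore does not show macrophages in either genotype. The neuronal gene Map2 was also lower, with 6.20 to 24.5 CPM in Neat1 null and 23.8 to 51.0 CPM in wild-type libraries (-1.39, edgeR, adjusted p = 0.0439). Krt14, which marks basal epithelium, was at 0 in all 8 libraries. The epithelial adhesion gene Epcam was present at 33.95 to 64.6 CPM in Neat1 null and 26.9 to 57.1 CPM in wild-type libraries. The part of these marker differences in the results on the factor genes was not tested.

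Among the 10 factor genes, Elk3 and Etv1 were lower in Neat1 null than in wild-type libraries, with ratios of 0.331 and 0.354, and no factor gene was called higher. All 10 had enough counts to be tested. With edgeR's quasi-likelihood test, adjusted over 13316 genes, 2 passed the threshold of an adjusted p of 0.05 and 8 did not, where 17.7% of all tested genes passed in either direction, 9.97% as higher and 7.72% as lower. The groups did not overlap for the same 2 genes, against 22.6% of all tested genes. The count of 2 in 10 therefore lies near the background. The median log2 fold change was -0.13 for the 10 genes and -0.06 for all tested genes. At an unadjusted p under 0.05 there were 4 factor genes, against 36% of all tested genes, the added ones being Etv4 and Srf, which had higher values in Neat1 null libraries and which DESeq2 also called. DESeq2 called 4 members in all, where it called 25.8% of all tested genes. The calls of Elk3 and Etv1 ended when wild-type library 3 was dropped, when wild-type library 4 was, and when Neat1 null library 3 was dropped alone or together with Neat1 null library 1. In each of these 4 fits 0 members passed with edgeR and 2 had an unadjusted p under 0.05. Over all genes the 4 fits called 18, 11, 13 and 7 genes, in that order.

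**Figure D1:**
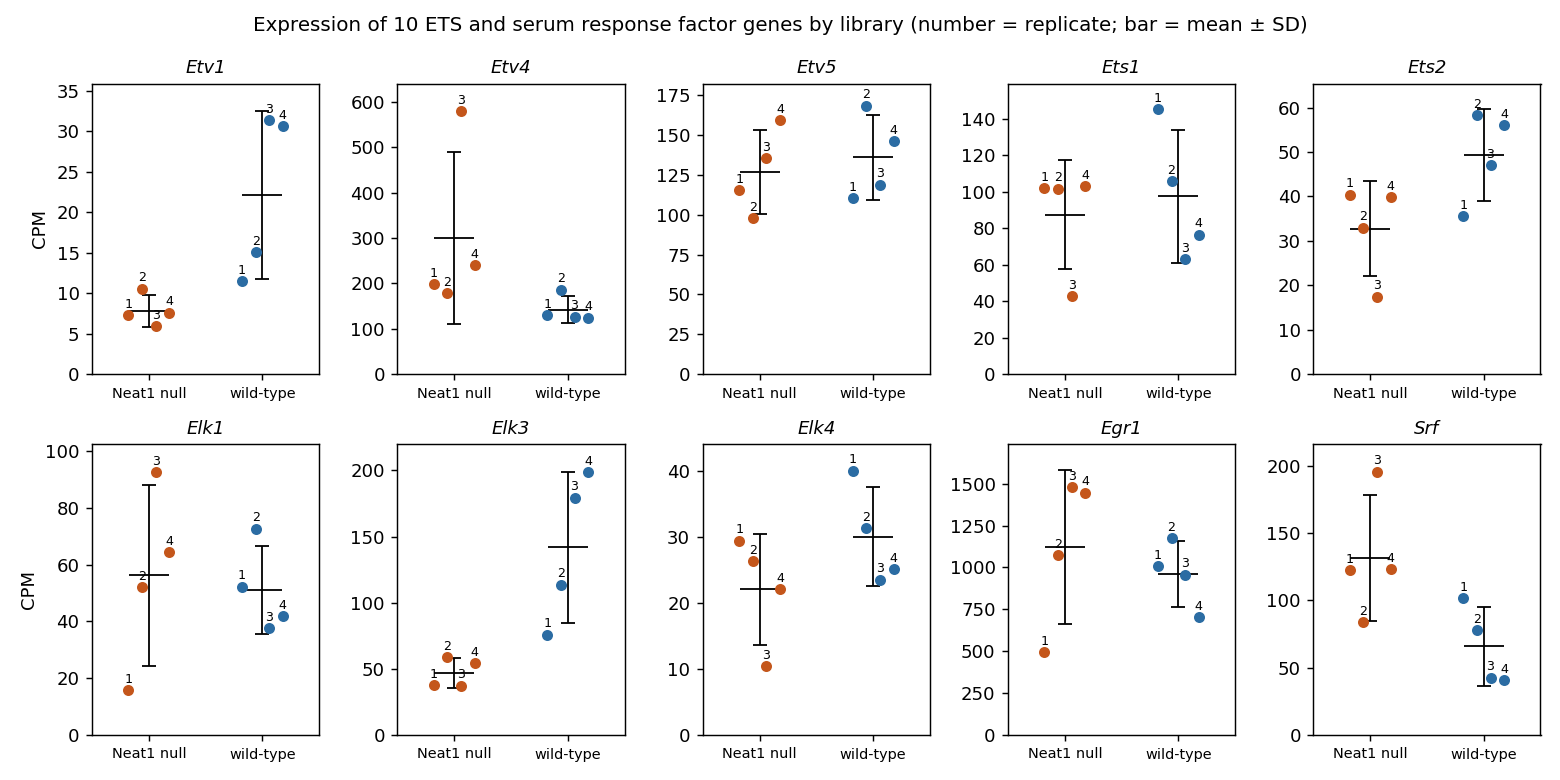
Expression in CPM (vertical axes from 0) of the 10 factor genes, 1 panel per gene, with 1 point per library numbered by replicate and a horizontal line with bars for mean ± SD of 4 libraries. Every Neat1 null point lies below every wild-type point for Etv1 and Elk3, while the other 8 genes overlap between the groups.

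Elk3 (also called Net) is the ternary complex factor that can repress Srf target genes until ERK phosphorylates it. The gene lies on chromosome 10 (GRCm38, 93247414 to 93311135, minus strand), and its exons overlap exons of Cdk17 on the opposite strand. Elk3 had 37.5, 59.0, 37.2 and 54.1 CPM in Neat1 null libraries 1 to 4, against 75.8, 114, 179 and 199 CPM in wild-type libraries 1 to 4. All Neat1 null libraries were below all wild-type libraries, and the wild-type libraries were spread more widely, with libraries 3 and 4 high and library 1 low. The means were 47.0 ± 11.3 CPM in Neat1 null and 142 ± 57.2 CPM in wild-type (SD, n = 4 each). The log2 fold change was -1.60 (SE 0.38, edgeR, adjusted p = 0.0190), a ratio of 0.331, which is at the 6.99th percentile of all tested genes. With any 1 library left out it lay between -1.79 and -1.39 and passed the threshold in 5 of 8 fits. Correction of the libraries for the length and GC content of genes gave -1.47 (adjusted p = 0.0345). Over the alternatives without the sex covariate its adjusted p ran from 0.00142 to 0.15.

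Etv1 (ER81) is the PEA3 factor with the lowest level in these cells. It lies on chromosome 12 (38779380 to 38870484, plus strand), with 13296 bases of annotated exon sequence, longer than in 95.9% of the tested genes. Etv1 had 7.28, 10.6, 5.89 and 7.59 CPM in Neat1 null libraries 1 to 4, against 11.5, 15.0, 31.4 and 30.7 CPM in wild-type libraries 1 to 4. Again every Neat1 null library was below every wild-type library, though Neat1 null library 2 and wild-type library 1 were close to each other. The means were 7.83 ± 1.96 CPM in Neat1 null and 22.1 ± 10.4 CPM in wild-type (SD, n = 4 each), a log2 fold change of -1.50 (SE 0.42, edgeR, adjusted p = 0.0270) and a ratio of 0.354. With any 1 library left out it lay between -1.70 and -1.28 and passed in 5 of 8 fits. It was -0.44 (adjusted p = 0.394) after the length and GC correction. Slopes with log2 gene length were taken from log2 CPM minus each gene's mean over the 8 libraries. They were -0.448 to 0.0103 per doubling in Neat1 null and 0.120 to 0.231 in wild-type. Such slopes compare libraries with one another and do not show how log2 CPM itself moved with length. With library sex as a covariate Etv1 had -1.91, and over the alternatives without that covariate its adjusted p ran from 0.00611 to 0.394.

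Elk3 and Etv1 followed one another across the 8 libraries more closely than any other pair of the 10. After each gene was centred on its own mean of log2(CPM + 0.5), their root-mean-square difference was 0.177, the smallest of 45 pairs, and among all tested genes Elk3 was the 8th nearest to Etv1 and Etv1 the 9th nearest to Elk3. The tested gene nearest to Elk3 was Deptor, an inhibitor of mTOR, at a root-mean-square difference of 0.0547, and the nearest to Etv1 was Camk2d, a calcium/calmodulin-dependent kinase subunit, at 0.0914. Having been picked for patterns nearest to genes already called lower, both were lower as well, which is a description and no further support. Camk2d had a log2 fold change of -1.49 (SE 0.38, edgeR, adjusted p = 0.0217) and Deptor had -1.96 (SE 0.55, edgeR, adjusted p = 0.0282). Deptor had a low level, 0.942 ± 0.339 CPM in Neat1 null and 3.72 ± 1.56 CPM in wild-type libraries. After the length and GC correction neither passed (Camk2d -0.29, adjusted p = 0.549, and Deptor -1.30, adjusted p = 0.0743).

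The likeness of Elk3 and Etv1 was measured without the length and GC correction, after which their log2 fold changes were -1.47 for Elk3 and -0.44 for Etv1. The sequences before their start sites are shown because they are the 2 members called and the closest pair in CPM. They are the 250 bases before a RefSeq start site (GRCm38.p6), 5′ to 3′ on the gene's strand, with GGAA cores on either strand in capitals (TTCC where the core is on the other strand).
Etv1, chr12:38779832-38780081, plus strand: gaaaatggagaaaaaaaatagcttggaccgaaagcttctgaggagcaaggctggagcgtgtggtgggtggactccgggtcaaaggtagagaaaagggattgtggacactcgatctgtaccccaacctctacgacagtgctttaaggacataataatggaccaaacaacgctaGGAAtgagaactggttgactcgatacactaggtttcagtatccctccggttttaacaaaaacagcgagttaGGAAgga
Elk3, chr10:93311160-93311409, minus strand: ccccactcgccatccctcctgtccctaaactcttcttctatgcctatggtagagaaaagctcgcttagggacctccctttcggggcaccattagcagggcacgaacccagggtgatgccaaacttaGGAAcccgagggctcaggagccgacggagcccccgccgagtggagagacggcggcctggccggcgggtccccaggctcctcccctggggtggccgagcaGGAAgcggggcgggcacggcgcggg
Each of these windows holds 2 GGAA cores. Etv1 has a second RefSeq start site, whose window (chr12:38783461-38783710) holds 1 core and 44.4% G and C and none of the other motifs searched. At least 1 core is found in 93.4% of 32851 such RefSeq windows of mouse genes, so the cores do not set the pair apart. Neither window holds a CArG box, the Srf recognition sequence, which occurs in 1.47% of all windows. Neither holds the longer ETS site CCGGAAGT (2.88% of windows) or the Egr1 sites GCGTGGGCG and GCGGGGGCG (0.536% and 2.57%), each searched on both strands. The windows differ in base composition, with 46.4% G and C before Etv1 and 67.2% before Elk3.

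**Figure D2:**
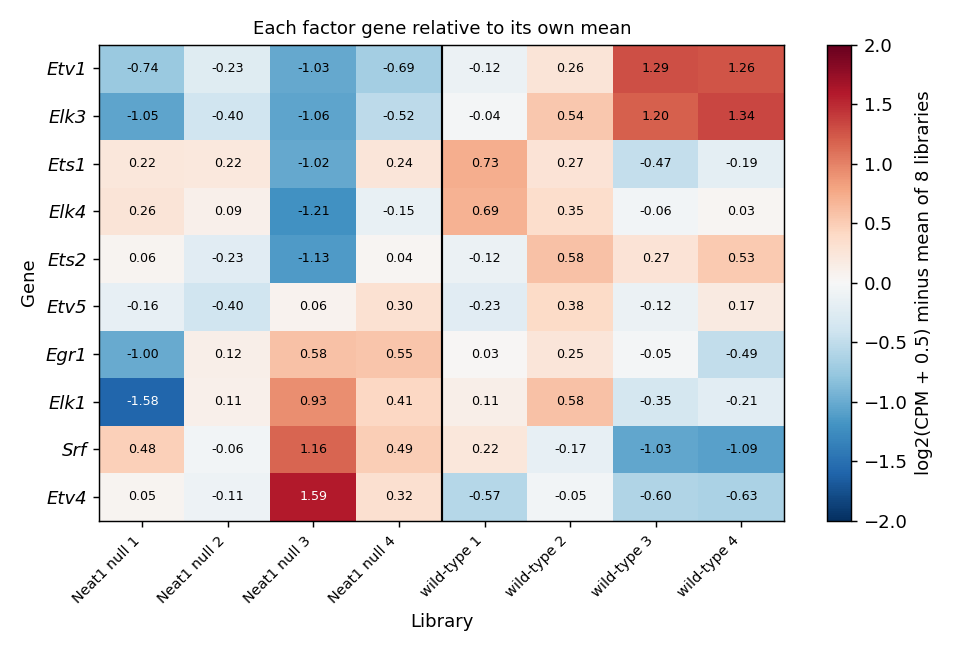
Heat map of log2(CPM + 0.5) minus each gene's mean over the 8 libraries, with genes down the side and libraries across (Neat1 null left of the line, wild-type right), each cell printed with its value. Etv1 and Elk3 share a pattern, highest in wild-type libraries 3 and 4, where Srf is lowest, and Neat1 null library 3 has the lowest Ets1, Ets2 and Elk4 and the highest Etv4, Srf and Elk1.

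Etv4 (PEA3) and Etv5 (ERM), the other two PEA3 factors, had far more signal per length than Etv1. Etv4 had 199, 179, 580 and 241 CPM in Neat1 null libraries, against 129, 186, 127 and 125 CPM in wild-type libraries. Neat1 null library 3 stood far above the rest, and Neat1 null library 2 was below wild-type library 2, so the groups overlapped. The means were 299.8 ± 189 CPM in Neat1 null and 142 ± 29.6 CPM in wild-type (SD, n = 4 each), and the log2 fold change of 1.08 (SE 0.42) did not pass (adjusted p = 0.0817, edgeR). It was 0.55 without Neat1 null library 3 (adjusted p = 0.209) and 0.64 after the length and GC correction (adjusted p = 0.130). DESeq2 gave 1.15 (adjusted p = 0.0373), and with sex as a covariate the value was 2.03, a fit in which Neat1 null library 3 is the only female Neat1 null library. Over the alternatives without the sex covariate the adjusted p of Etv4 ran from 0.0373 to 0.232. Etv5 had 115, 98.0, 135 and 159 CPM in Neat1 null libraries, against 110, 168, 119 and 146 CPM in wild-type libraries. The groups lay over one another, with a log2 fold change of -0.10 (SE 0.33, edgeR, adjusted p = 0.850).

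Within the PEA3 subfamily, Etv4 had a larger and Etv5 and Etv1 a smaller share in every Neat1 null library than in any wild-type library. Shares of a subfamily were taken within a library, from CPM per kilobase of exon sequence, so they do not depend on how libraries are scaled to each other. Etv4 made up 69.1%, 70.0%, 84.8% and 66.3% of the subfamily in Neat1 null libraries, against 59.99%, 58.7%, 56.6% and 51.5% in wild-type libraries, with no overlap. Etv5 made up 30.3%, 29.0%, 15.0% and 33.2% in Neat1 null libraries, against 38.8%, 40.2%, 40.1% and 45.6% in wild-type libraries, again with no overlap. Etv1 was the minor member throughout, at 0.561 ± 0.316% in Neat1 null and 2.14 ± 1.13% in wild-type libraries (SD, n = 4 each). These shares are a description and were not tested. Within a library a larger Etv4 share leaves a smaller one for the others, so the Etv5 result is not a separate one. The shares were not taken after the length and GC correction. With that correction the log2 fold changes were 0.64 for Etv4, -0.14 for Etv5 and -0.44 for Etv1. Taken from CPM alone, without gene length, the mean share of Etv1 was 2.15% in Neat1 null and 7.54% in wild-type libraries, that of Etv4 was 65.9% and 47.2%, and that of Etv5 was 31.9% and 45.2%. The tested genes nearest in pattern were Eif4ebp1, a repressor of cap-dependent translation, for Etv4 (root-mean-square difference 0.105) and Pex26, a peroxisome biogenesis factor, for Etv5 (0.112).

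**Figure D3:**
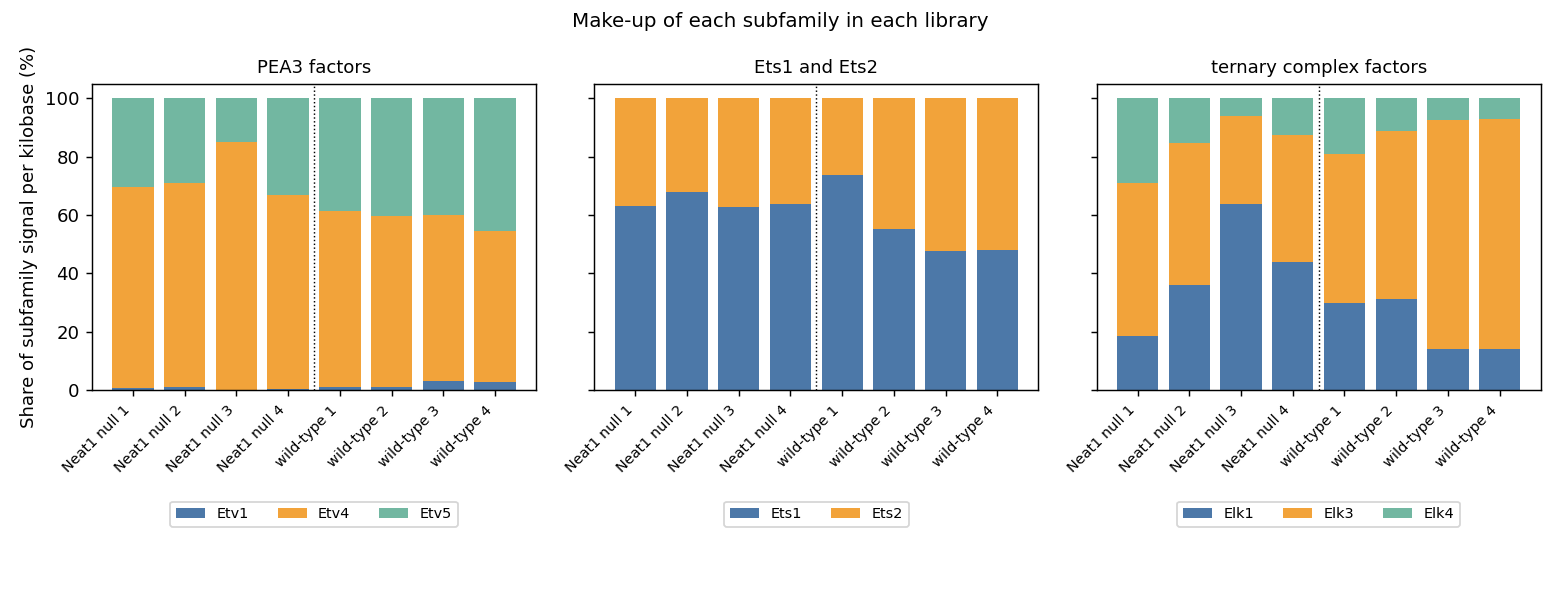
Stacked bars of the share of each paralogue in its subfamily's CPM per kilobase (vertical axis, percent) in each library, Neat1 null left and wild-type right of the dotted line. The Etv4 part of the PEA3 bars is 66.3% to 84.8% in Neat1 null and 51.5% to 59.99% in wild-type libraries, while the Ets1 and Elk1 parts overlap between genotypes.

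Ets1 and Ets2, the factors that ERK phosphorylates beside their Pointed domains, did not differ between genotypes beyond the spread of the libraries. Ets1 had 102, 102, 42.9 and 103 CPM in Neat1 null libraries, against 145, 106, 62.8 and 76.5 CPM in wild-type libraries. Neat1 null libraries 1, 2 and 4 were almost equal and library 3 was the lowest of all 8. The log2 fold change was -0.16 (SE 0.39, edgeR, adjusted p = 0.789), and it was 0.077 without Neat1 null library 3, 0.11 without wild-type library 1 and 0.35 after the length and GC correction. Ets2 had 40.4, 32.97, 17.5 and 39.8 CPM in Neat1 null libraries, against 35.6, 58.3, 47.0 and 56.1 CPM in wild-type libraries. Neat1 null library 3 was again the lowest and wild-type library 1 lay among the Neat1 null values. Its log2 fold change of -0.59 (SE 0.35) did not pass (adjusted p = 0.233, edgeR). With sex as a covariate it was -1.50, resting on Neat1 null library 3. Over the alternatives without the sex covariate the adjusted p of Ets2 ran from 0.124 to 0.435. Ets1 took 64.4 ± 2.33% of the pair's CPM per kilobase in Neat1 null and 56.2 ± 12.1% in wild-type libraries (SD, n = 4 each), where wild-type library 1 had 73.6% and wild-type libraries 3 and 4 had 47.7% and 48.2%. Nearest in pattern to Ets1 was the nuclear pore gene Nup155 (root-mean-square difference 0.0717), and to Ets2 the ciliary transport gene Ift172 (0.133).

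Elk1, the best-studied ternary complex factor, is X-linked (20933395 to 20950608, minus strand) and shares exon sequence with Uxt on the same strand. It had 15.8, 52.1, 92.8 and 64.5 CPM in Neat1 null libraries, against 52.3, 72.7, 37.7 and 41.8 CPM in wild-type libraries. The Neat1 null libraries held both the highest value, in library 3, and the lowest, in library 1, a 5.87-fold range against 1.93-fold in wild-type. The log2 fold change was 0.14 (SE 0.45, edgeR, adjusted p = 0.838), with a sign that changed without Neat1 null library 3 (-0.20), with upper-quartile scaling (-0.024) and with the replicate number as a block (-0.049). Elk4 (Sap-1), which binds Srf sites much as Elk1 does, had 29.5, 26.3, 10.4 and 22.1 CPM in Neat1 null libraries, against 40.1, 31.4, 23.6 and 25.2 CPM in wild-type libraries. Neat1 null library 3 was the lowest and wild-type library 1 the highest, and the groups overlapped, with a log2 fold change of -0.45 (SE 0.37, edgeR, adjusted p = 0.403). With sex as a covariate it was -1.53, resting on Neat1 null library 3. Over the alternatives without the sex covariate the adjusted p of Elk4 ran from 0.232 to 0.764. Elk4 overlaps exons of Gm29103 on the same strand and of Mfsd4a on the other.

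Within the ternary complex subfamily, Elk3 made up 52.2%, 48.5%, 30.2% and 43.5% of CPM per kilobase in Neat1 null libraries, against 51.1%, 57.6%, 78.7% and 78.9% in wild-type libraries. The groups overlapped by 1 library on each side, Neat1 null library 1 and wild-type library 1. Elk1 took 40.6 ± 18.7% in Neat1 null and 22.2 ± 9.51% in wild-type libraries, and Elk4 took 15.8 ± 9.75% and 11.2 ± 5.64% (SD, n = 4 each). Among the patterns of all tested genes, the nearest to Elk1 was Eif4ebp2, a paralogue of Eif4ebp1 (root-mean-square difference 0.162), and the nearest to Elk4 was Traf3, a signalling adaptor (0.0896).

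Egr1, the most abundant of the 10 per kilobase, had 493, 1073, 1480.1 and 1446 CPM in Neat1 null libraries, against 1007, 1174, 957 and 705 CPM in wild-type libraries. Neat1 null libraries 3 and 4 were above and library 1 below all wild-type libraries. The means were 1123 ± 459 CPM in Neat1 null and 961 ± 194 CPM in wild-type (SD, n = 4 each), a log2 fold change of 0.23 (SE 0.44, edgeR, adjusted p = 0.732). Its nearest gene in pattern was Inpp5b, an inositol phosphatase (root-mean-square difference 0.103). Of the other Egr genes and the Nab corepressors, which bind Egr proteins and limit their activity, 0 of 5 passed with edgeR or DESeq2 and 1 had an unadjusted p under 0.05, against 36% of all tested genes. Nab1, the member with the smallest p, had 40.9 ± 16.3 CPM in Neat1 null and 75.2 ± 18.5 CPM in wild-type libraries (SD, n = 4 each), a log2 fold change of -0.88 (SE 0.38, edgeR, adjusted p = 0.110).

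Srf, the partner of the ternary complex factors, had 123, 83.9, 196 and 123 CPM in Neat1 null libraries, against 102, 77.7, 42.5 and 40.9 CPM in wild-type libraries. Wild-type libraries 3 and 4 were the lowest of all and Neat1 null library 3 the highest, and Neat1 null library 2 lay below wild-type library 1. The means were 131 ± 46.7 CPM in Neat1 null and 65.8 ± 29.5 CPM in wild-type (SD, n = 4 each). The log2 fold change of 1.00 (SE 0.40) did not pass (adjusted p = 0.0882, edgeR), and it did without wild-type library 1 (1.30, adjusted p = 0.0430) and with DESeq2 (1.07, adjusted p = 0.0470). With sex as a covariate it was 1.57, resting on Neat1 null library 3. After the length and GC correction it was 0.54 (adjusted p = 0.285), and over the alternatives without the sex covariate the adjusted p ran from 0.0430 to 0.306. The Srf gene has short, GC-rich exons, 2893 bases of exon sequence with a GC content of its longest transcript above that of 99.5% of tested genes. The pattern of Srf ran against that of Elk3, with the largest root-mean-square difference of the 45 pairs, 1.57, and Smg5, a nonsense-mediated decay factor, was the nearest tested gene (0.115).

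The Srf gene is known to be its own target, and its start region is shown for the Srf sites in it. It is given as above, with CArG boxes and GGAA cores on either strand in capitals.
Srf, chr17:46556163-46556412, minus strand: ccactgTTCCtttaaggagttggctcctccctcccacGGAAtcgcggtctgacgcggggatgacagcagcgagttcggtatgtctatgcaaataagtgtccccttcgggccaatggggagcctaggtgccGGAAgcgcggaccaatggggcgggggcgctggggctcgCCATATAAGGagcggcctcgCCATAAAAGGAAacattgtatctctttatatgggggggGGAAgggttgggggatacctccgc
The window holds 2 CArG boxes, CCATATAAGG starting 82 bases and CCATAAAAGG starting 62 bases before the start site, the second overlapping a GGAA core. It also holds 1 Egr1 site, GCGGGGGCG, starting 101 bases before the start site. Windows of 7 of the 10 genes were searched, and of those 7 only Srf had a CArG box in them. The search covered no window of Etv4, Ets1 or Egr1, so it says nothing on CArG boxes of these genes and does not single out Srf among the 10.

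**Figure D4:**
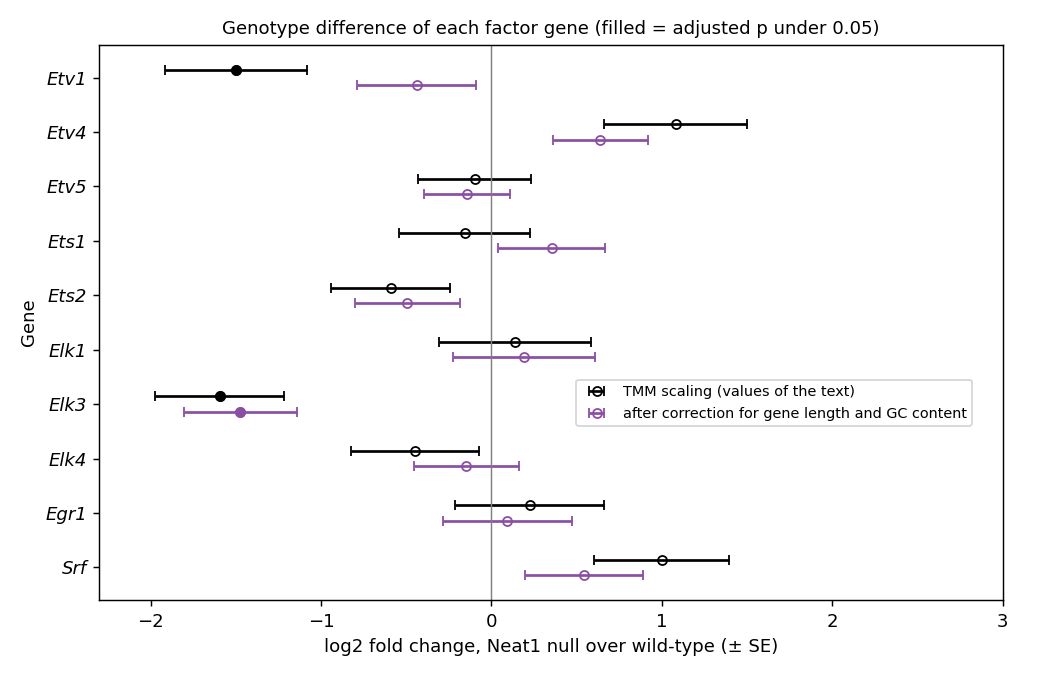
Log2 fold change of each factor gene, Neat1 null over wild-type (horizontal axis, points with ± SE), from the counts with TMM scaling and after the length and GC correction. Filled points passed an adjusted p of 0.05: Elk3 (-1.60 and -1.47) passed in both, and Etv1 (-1.50 and -0.44) in the first.

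Per kilobase of exon sequence, the order of levels in Neat1 null libraries was Egr1 (250.5 ± 102 CPM per kilobase), Etv4 (96.6 ± 60.9), Srf (45.4 ± 16.1), Etv5 (31.0 ± 6.43), Elk1 (10.5 ± 5.93), Elk3 (10.3 ± 2.48), Ets1 (10.3 ± 3.502), Ets2 (5.65 ± 1.85), Elk4 (3.44 ± 1.30) and Etv1 (0.589 ± 0.148). In wild-type libraries it was Egr1 (214 ± 43.3), Etv4 (45.7 ± 9.55), Etv5 (33.1 ± 6.45), Elk3 (31.2 ± 12.6), Srf (22.7 ± 10.2), Ets1 (11.5 ± 4.30), Elk1 (9.50 ± 2.904), Ets2 (8.52 ± 1.79), Elk4 (4.69 ± 1.17) and Etv1 (1.67 ± 0.781), as mean ± SD of 4 libraries in CPM per kilobase. The ranges of neighbours in these orders overlapped, except Etv5 against Elk1 and Elk4 against Etv1 in Neat1 null libraries, and Egr1 against Etv4 and Elk4 against Etv1 in wild-type libraries. Elk3 came after Elk1 in Neat1 null libraries and before Srf in wild-type libraries, and Srf came before Etv5 in Neat1 null libraries and after it in wild-type libraries.

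Other ETS genes showed 1 call among 8 tested of 17 listed with a row in the tables (1 higher and 0 lower, median log2 fold change -0.34), where 17.7% of all tested genes were called. It was Erf, a repressor that ERK removes from the nucleus, with 93.6, 92.7, 196 and 85.7 CPM in Neat1 null libraries, against 64.4, 63.1, 42.8 and 46.2 CPM in wild-type libraries. All Neat1 null libraries were above all wild-type libraries, and the log2 fold change was 1.11 (SE 0.37, edgeR, adjusted p = 0.0475). With upper-quartile scaling Erf did not pass (0.93, adjusted p = 0.0683), nor after the length and GC correction (0.80, adjusted p = 0.0639), without the low-count filter (1.12, adjusted p = 0.0526) or with the replicate block (1.03, adjusted p = 0.0845). Without wild-type library 1 or wild-type library 2 it did not pass either (edgeR, adjusted p = 0.0504 and 0.0736).

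Genes that act upstream of the factors were mixed. The counts below stand beside 9.97% of all tested genes called higher and 7.72% called lower. Of 10 tested kinases and scaffolds of the ERK cascade 1 was higher and 2 were lower (median 0.06 on the log2 scale). The Raf kinase gene Braf had 30.002, 53.3, 15.3 and 31.8 CPM in Neat1 null libraries, against 78.6, 60.5, 103 and 107 CPM in wild-type libraries, a log2 fold change of -1.42 (SE 0.40, edgeR, adjusted p = 0.0273) that became -0.52 after the length and GC correction (adjusted p = 0.134). The scaffold gene Ksr1 had 8.31 ± 2.60 CPM in Neat1 null and 19.0 ± 2.99 CPM in wild-type libraries (-1.19, SE 0.37, edgeR, adjusted p = 0.0381). Ksr1 did not pass without the low-count filter (-1.17, adjusted p = 0.0525), and with sex as a covariate it had -0.80. With 1 library left out it passed only without wild-type library 1 (edgeR, adjusted p = 0.0333). In the other such fits its adjusted p was 0.0535 to 0.117. Map2k2, which encodes MEK2, was higher, with 823, 144, 469 and 209 CPM in Neat1 null libraries, against 156, 113, 87.9 and 95.9 CPM in wild-type libraries (log2 fold change 1.86, SE 0.50, edgeR, adjusted p = 0.0252). Neat1 null libraries 1 and 3 carried much of that difference, and it was 0.63 without them (adjusted p = 0.214). With sex as a covariate Map2k2 had 2.05. Of 8 tested regulators of PEA3 and ETS proteins 0 were higher and 1 was lower (median -0.13), Atxn1, a partner of the Etv repressor Cic, with a log2 fold change of -1.72 (SE 0.49, edgeR, adjusted p = 0.0294). After the length and GC correction Atxn1 had -1.01 and did not pass (adjusted p = 0.0981). Cic itself had 149.7 ± 73.4 CPM in Neat1 null and 158 ± 15.3 CPM in wild-type libraries (SD, n = 4 each, adjusted p = 0.895, edgeR).

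Downstream, 3 of 14 immediate early genes that Srf can drive were higher and 1 was lower (median log2 fold change 0.50). Over all tested genes 9.97% were called higher and 7.72% lower, and no test of the list was run. Ier2 had 515, 170, 386 and 251 CPM in Neat1 null libraries, against 118, 70.1, 47.8 and 37.0 CPM in wild-type libraries, with no overlap and a log2 fold change of 2.28 (SE 0.47, edgeR, adjusted p = 0.0180). The zinc finger gene Klf4 was lower without overlap, with 3.32, 7.07, 3.17 and 5.33 CPM in Neat1 null libraries, against 9.46, 14.9, 15.2 and 29.0 CPM in wild-type libraries (-1.85, SE 0.45, edgeR, adjusted p = 0.0195). The stress-induced factor gene Atf3 was higher (2.44, SE 0.60, edgeR, adjusted p = 0.0201), although Neat1 null library 1, at 12.04 CPM, lay inside the wild-type range of 7.55 to 21.3 CPM. Atf3 did not pass after the length and GC correction (2.10, adjusted p = 0.0517) or with the replicate block (2.16, adjusted p = 0.0707), and with sex as a covariate it had 2.23. The nuclear receptor gene Nr4a1 was also called higher (1.85, SE 0.47, edgeR, adjusted p = 0.0217) and is named outside the rule, after its values were seen. It had 119, 179, 26.2 and 95.9 CPM in Neat1 null libraries, against 34.99, 24.9, 34.2 and 23.0 CPM in wild-type libraries. With sex as a covariate its value was -0.16, resting on Neat1 null library 3, the one with 26.2 CPM. Fos, the classical target of the ternary complex, had 17.3 ± 7.68 CPM in Neat1 null and 12.3 ± 4.08 CPM in wild-type libraries and did not pass (SD, n = 4 each, adjusted p = 0.387, edgeR).

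**Figure D5:**
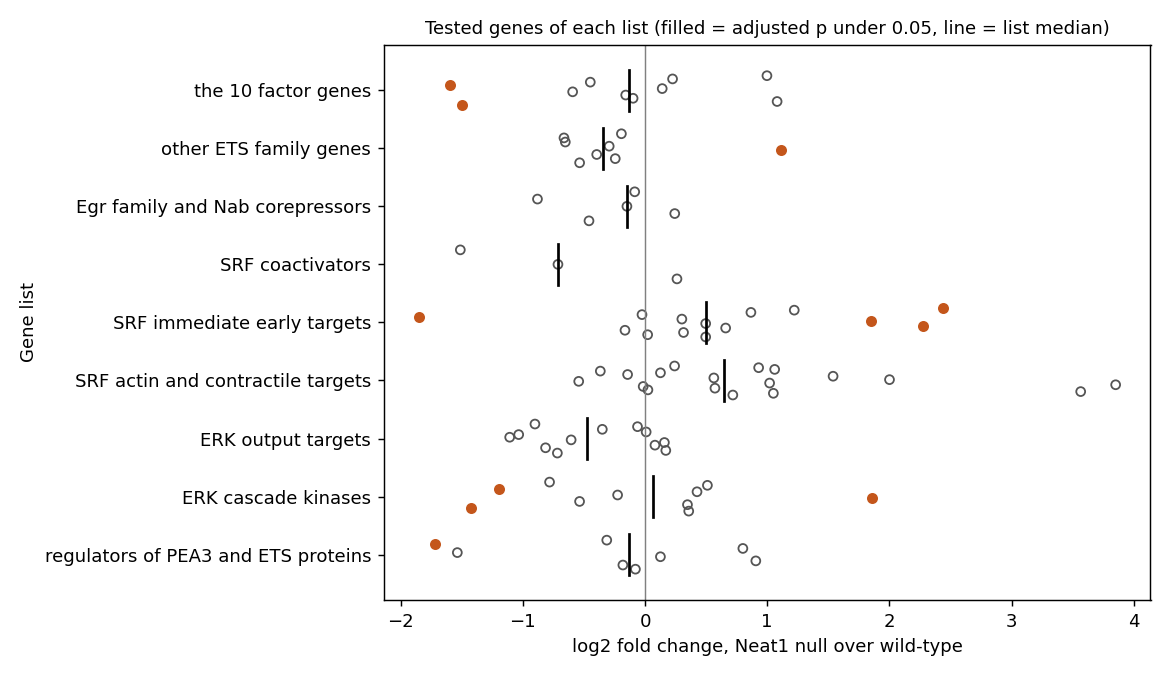
Log2 fold change, Neat1 null over wild-type (horizontal axis), of each tested gene in the factor set and in 8 related gene lists (rows), with filled points for an adjusted p under 0.05 and a vertical line at each list's median. Calls appear in 4 of the 8 related lists, and the medians run from -0.71 (Srf coactivators) to 0.65 (Srf actin and contractile targets).

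In the remaining lists 0 genes passed with edgeR. Over all tested genes 17.7% passed with edgeR and 25.8% with DESeq2, and 36% had an unadjusted p under 0.05 (edgeR). Of 18 actin and contractile targets of Srf, 0 passed (3 with DESeq2, 5 at an unadjusted p under 0.05) with a list median of 0.65 on the log2 scale, and the member with the smallest p, the tropomyosin gene Tpm2, had 1313, 228, 346 and 273 CPM in Neat1 null libraries, against 158, 224, 174 and 187 CPM in wild-type libraries (1.54, SE 0.52, edgeR, adjusted p = 0.0537). The list median was -0.011 without Neat1 null library 1. Of 12 ERK output genes, among them the Dusp and Sprouty feedback inhibitors, 0 passed (2 with DESeq2, 2 at an unadjusted p under 0.05), with a median of -0.48. The Ras inhibitor gene Spred2 had the smallest p, with 23.2, 52.3, 24.02 and 46.5 CPM in Neat1 null libraries, against 70.5, 74.0, 77.7 and 77.1 CPM in wild-type libraries (-1.03, SE 0.35, edgeR, adjusted p = 0.0545). Of 3 coactivators of Srf 0 passed with either tool and 0 had an unadjusted p under 0.05, and Mkl2 had the smallest p of them, with 29.2 ± 11.1 CPM in Neat1 null and 47.9 ± 4.44 CPM in wild-type libraries (SD, n = 4 each, log2 fold change -0.71, SE 0.36, edgeR, adjusted p = 0.163). Of the 9 called genes in these lists, 0 passed without wild-type library 3 (adjusted p = 0.0671 to 0.154), 0 without wild-type library 4 (0.0684 to 0.157) and 1, Nr4a1, without Neat1 null library 3 (0.0331). With Neat1 null library 1, 2 or 4 left out alone, 5, 8 and 6 of the 9 passed. With wild-type library 1 or 2 left out alone, 8 and 6 passed. After the length and GC correction 4 of the 9 passed.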

How the data were processed

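Raw read counts per gene symbol were deposited by the authors, 1 table per library, for 4 Neat1 null and 4 wild-type libraries. Per the submitters' processing notes, CASAVA 1.8, STAR, DESeq2 and the mm10 build were used, without stated roles, and per the labels' protocols libraries were made with a stranded RNA kit. The counter, its strand setting and the annotation are not given in the sources used here, so counts of genes with overlapping exons are uncertain. The 2 last entries of each table, reads outside genes (5.48% to 11.0% of counts in Neat1 null, 9.83% to 15.7% in wild-type) and ambiguous reads (1.34% to 1.76% and 1.09% to 1.22%), were left out.

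Counts were filtered with filterByExpr (minimum count 10), scaled with TMM factors and tested with the quasi-likelihood F test of edgeR 4.0.16 in R 4.3.3 (robust, 2-sided, genotype as the only term), with Benjamini-Hochberg adjustment over all 13316 genes tested and 0.05 as the limit for a call. Fold changes (log2) put Neat1 null over wild-type, and an SE is the size of the log2 fold change divided by the square root of F. Lengths are union exon lengths from GENCODE M21 (GRCm38, also called mm10), which matched 98.6% of symbols. GC content is that of the longest transcript. The correction for both used splines with 5 degrees of freedom per library as offsets. DESeq2 1.42.0, other scalings and filters, each library left out and other terms were alternatives. The fit was tested on simulated data.

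The members and gene lists were chosen with earlier results of these data known. Named genes are all 10 members and Neat1, up to 3 called genes with the smallest p per list (or the 1 with the smallest p where none was called), and the tested gene nearest to each member. Genes named outside that rule, chosen after their values were seen, are Fos, Cic, Nr4a1, the overlapping genes and the markers of cell identity and sex.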

Additional observations from a re-analysis of the deposited data

Results flagged for a closer look

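Of the 20 sets of 4 libraries (10 genes in each genotype), 3 had 1 library far from the others, with a gap to its nearest neighbour, as a share of the whole range in CPM, above Dixon's 95% critical value. About 1 in 20 sets would be picked out by chance if they were independent and normally distributed. These sets share the same 8 libraries and are on the CPM scale, so that rate is only a rough guide. Etv4 had 580 CPM in Neat1 null library 3, where the next highest Neat1 null library had 241 CPM (0.846 of the range). Etv4 also had 186 CPM in wild-type library 2, where the next had 129 CPM (0.927 of the range). Ets1 had 42.9 CPM in Neat1 null library 3, where the next lowest had 102 CPM (0.975 of the range). Neat1 null library 3 is also the only female Neat1 null library. Its log2 CPM minus each gene's mean over the libraries had the lowest slope with gene length (-0.448 per doubling). The part of sex and of this slope in these values was not tested.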

How the results depend on the processing

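As reported, edgeR called 2 members and 2356 genes. Members called came to 4 with DESeq2 (25.8% of all genes, 3433), 5 with sex as a covariate (25.4%, 3379), 1 after the length and GC correction (12.6%, 1660), 0 at an adjusted p under 0.01, 0 without Neat1 null libraries 1 and 3, and 0 to 3 with 1 library left out. The calls over all genes came to 7 at an adjusted p under 0.01, 7 without Neat1 null libraries 1 and 3, and 11 to 2965 with 1 library left out. At an unadjusted p under 0.05, 4226, 3407 and 3342 genes were counted in the fits without Neat1 null library 3, wild-type library 3 and wild-type library 4. Upper-quartile scaling moved the median of all genes to -0.24 and the split from 1328 higher and 1028 lower to 1036 and 1428.

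Signs reversed for Elk1 (-0.049 with the replicate block, -0.024 with upper-quartile scaling, -0.20 to 0.45 with 1 library left out), for Ets1 (0.35 after the length and GC correction, 0.070 without Neat1 null libraries 1 and 3, -0.32 to 0.11 with 1 left out) and for Etv5 (-0.23 to 0.028 with 1 left out). None of these values was called, and the cause was not tested. Of 180 log2 fold changes of members under the alternatives, 154 kept their sign and side of the threshold. The 180 include those of the fit with sex as a covariate, which rests on Neat1 null library 3.

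Same-numbered libraries of the 2 genotypes did not deviate together: the correlations were 0.31, -0.31, -0.033 and 0.090 for numbers 1 to 4, and only number 1 was best matched by its own. With the replicate block 2 members and 2245 genes were called.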
